A study of Mus musculus with 6 samples.

Results

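The genes of MHC class I antigen presentation and of the immunoproteasome were examined in the livers of ethanol-fed mice with and without Cd44 in myeloid cells. The 10 genes were named by symbol (H2-K1, H2-D1, B2m, Tap1, Tap2, Tapbp, Psmb8, Psmb9, Psmb10 and Nlrc5), and each symbol matched 1 of the 54532 genes of the count table. The tested mice were LysMcre/+ Cd44flox/flox, in which Cre made from the lysozyme locus deletes Cd44 in monocytes, macrophages and neutrophils, and they are called knockout here (3 livers). The littermates were LysM+/+ Cd44flox/flox, so they carried the same floxed Cd44 without Cre, and they are called WT here, as in the labels (3 livers). All 6 mice were C57BL/6J/Rj, were fed the Lieber-DeCarli liquid diet with 6% ethanol for 10 days, and were given 5 g/kg ethanol by gavage on day 11, 9 hours before the livers were taken. Age and sex are not given in the labels used here, and mice without ethanol or with Cre alone were not analysed here.

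MHC class I molecules show peptides from inside the cell to CD8 T cells and are found on nearly all nucleated cells. Peptides are cut by the proteasome, whose catalytic subunits are exchanged for immunoproteasome subunits under interferon gamma, and are then pumped into the endoplasmic reticulum by TAP and loaded onto a heavy chain paired with beta-2-microglobulin. In liver, hepatocytes carry class I at low density, while Kupffer cells and sinusoidal endothelial cells carry more. Whole liver was sequenced, so in these data fewer cells of a type and less RNA per cell cannot be told apart.

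None of the 10 genes passed the test between knockout and WT livers, although 25% of all 14758 genes tested did so. All 10 passed the filter on low counts, with at least 306 counts in every library. Passing means an adjusted p under 0.05 by edgeR's quasi-likelihood method, adjusted over every gene tested. The log2 fold changes of knockout over WT ran from -0.37 (Tapbp) to 0.31 (Psmb9), with a median of -0.03, where the median of all tested genes was -0.01. The 95% intervals of the 10 folds lay between 0.625 and 1.59. The number with an unadjusted p under 0.05 was 1 (Tapbp), and DESeq2 and limma-voom also called 0 of 10. The values of the knockout and WT livers did not overlap for 3 of the 10 genes (H2-K1, H2-D1 and Tapbp), where this held for 43.8% of all tested genes. H2-D1 and Tapbp were the 2 that were lower in every knockout liver, a pattern seen in 22.5% of all tested genes. Relative to library totals rather than TMM scaling, the median of all genes was -0.26 and H2-D1 and Tapbp passed as lower (log2 -0.49 and -0.62, adjusted p = 0.0255 and 0.0162). With that scaling 3698 of all 14758 tested genes passed as lower.

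**Figure D1:**
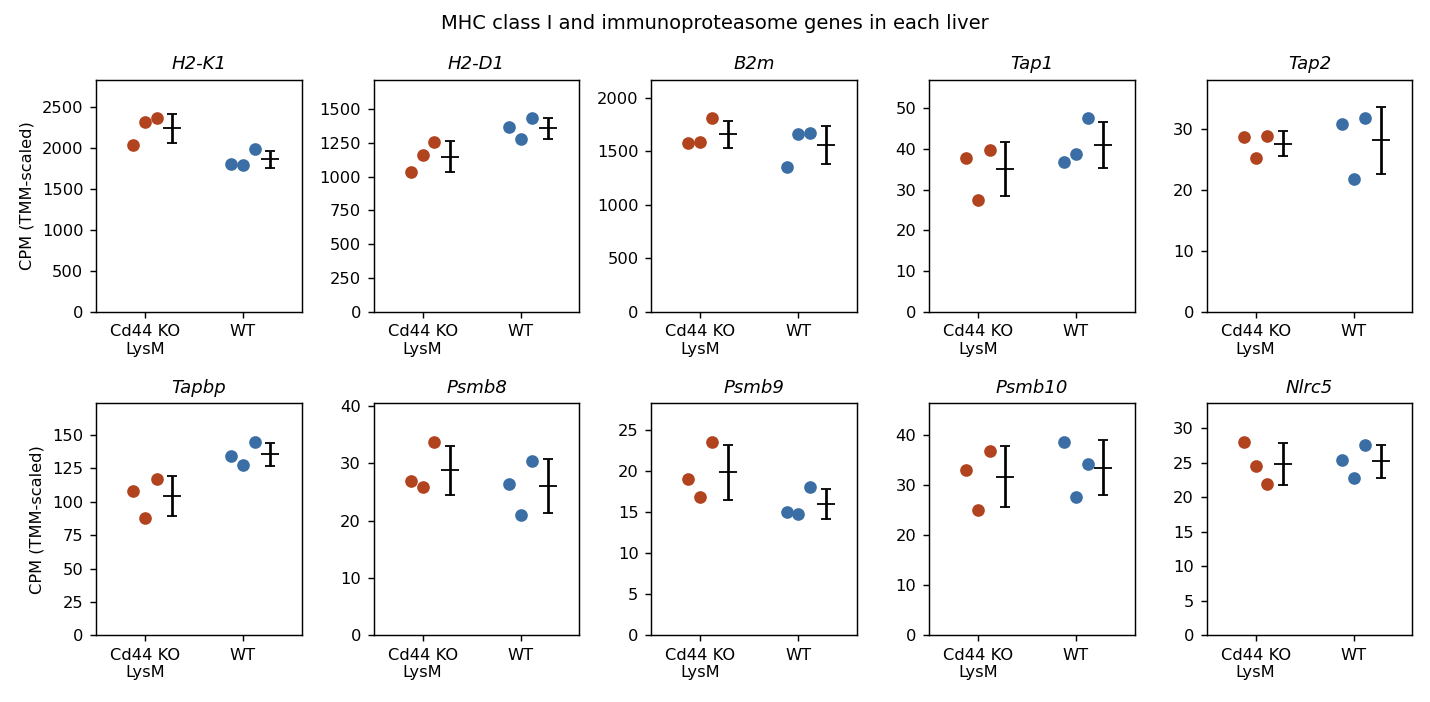
Level of each gene in each liver, in CPM (counts scaled to a common library size, by TMM), with the knockout livers (Cd44 KO LysM) left of the WT livers. Points are livers, and the bar gives the mean ± SD (n = 3 per group). The groups are apart for H2-K1 (higher in knockout), H2-D1 and Tapbp (both lower in knockout), and overlap for the other 7 genes.

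Cd44, the deleted gene, stood at 2.11, 1.92 and 3.01 CPM in knockout livers against 32.6, 34.8 and 26.4 CPM in WT livers, with all knockout libraries low. Lyz2, the locus that carries Cre, had 41.3, 36.9 and 66.5 CPM in knockout livers and 195, 218 and 235 CPM in WT livers. Levels in CPM are counts scaled to a common library size by TMM. Library totals were 18428224 to 24042917 counts. Of 10 myeloid markers 9 fell (median log2 -1.43), where 13.1% of all tested genes fell, with a summed level of 154 to 289.8 CPM in knockout livers and 579 to 633 CPM in WT livers. This list holds Lyz2, and without it (a choice made after seeing the data) 8 of 9 fell, at a sum of 117 to 223 CPM in knockout livers and 356 to 438 CPM in WT livers. Of 8 Kupffer cell markers 6 fell (median log2 -0.87), at a sum of 268 to 546 CPM in knockout livers and 826 to 892 CPM in WT livers. That count was 2 without knockout liver 1 and 3 without WT liver 1 or 2. Of 8 dendritic cell markers 2 fell, and of 8 endothelial markers 0 passed by edgeR, with 2 at an unadjusted p under 0.05, 1 called by DESeq2 and by limma-voom, and 2 called without knockout liver 2. Of 6 stellate cell markers 2 fell, or 1 without WT liver 2 or 3. Of 8 hepatocyte markers 4 rose (median log2 0.83), where 11.9% of all tested genes rose, and 2 rose without WT liver 1. The part of these cell markers in the levels of the class I genes was not tested.

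H2-K1 and H2-D1 encode the classical class I heavy chains H-2K and H-2D, which bind the peptide. H2-K1 (ENSMUSG00000061232, chromosome 17, 33996017 to 34000347, minus strand, GRCm38) stood at 2033, 2313 and 2357 CPM in knockout livers and at 1803, 1786 and 1981 CPM in WT livers. Every knockout liver lay above every WT liver, and the log2 fold change of 0.27 (SE 0.14, 95% interval -0.06 to 0.59) did not pass (adjusted p = 0.208, edgeR). H2-D1 (ENSMUSG00000073411, chromosome 17, 35262730 to 35267499, plus strand) stood at 1032, 1157 and 1254 CPM in knockout livers and at 1364, 1274 and 1430 CPM in WT livers. Here every knockout liver lay below every WT liver, and the log2 fold change of -0.24 (SE 0.14, 95% interval -0.56 to 0.08) did not pass either (adjusted p = 0.242, edgeR).

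The ratio of H2-K1 to H2-D1 counts does not depend on library scaling, and it was examined after these values had been seen. It was 1.97, 2.00 and 1.88 in knockout livers and 1.32, 1.40 and 1.39 in WT livers, a mean of 1.95 ± 0.062 against 1.37 ± 0.042 (SD, n = 3 each). Since H2-K1 was higher and H2-D1 lower in every knockout liver, the ratio had to separate the groups, and its values are given as a description with no test. The class I genes are close copies, so some reads may be divided among them. Of the 75-base windows of its coding transcripts, H2-K1 shared 1.12% and H2-D1 shared 6.33% with transcripts of other genes.

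The promoters of these heavy chains and of B2m are shown because the control region they share is the target of NLRC5 and of interferon and NF-kappa-B signals, while the levels of H2-K1 and H2-D1 lay on opposite sides of WT. The windows are from RefSeq (GRCm38.p6), 250 bases before to 50 bases after the start site, read 5′ to 3′ on the strand of the gene. Capitals mark matches, on either strand, to a kappa-B site (the first run of capitals in the H2-K1 and H2-D1 windows), an interferon response core (TTTCNNTT), the core of the X2 box (TGACG) and the Y box (ATTGG), and no matches overlap in the windows shown. GENCODE begins H2-D1 364 bases further upstream.
H2-K1, chr17:34000298-34000597, minus strand: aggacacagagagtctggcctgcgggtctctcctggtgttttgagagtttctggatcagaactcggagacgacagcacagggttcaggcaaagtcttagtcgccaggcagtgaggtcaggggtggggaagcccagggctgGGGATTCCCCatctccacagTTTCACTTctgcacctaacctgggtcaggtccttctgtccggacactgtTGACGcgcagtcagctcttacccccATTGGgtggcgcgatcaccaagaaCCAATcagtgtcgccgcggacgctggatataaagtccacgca
H2-D1, chr17:35262844-35263143, plus strand: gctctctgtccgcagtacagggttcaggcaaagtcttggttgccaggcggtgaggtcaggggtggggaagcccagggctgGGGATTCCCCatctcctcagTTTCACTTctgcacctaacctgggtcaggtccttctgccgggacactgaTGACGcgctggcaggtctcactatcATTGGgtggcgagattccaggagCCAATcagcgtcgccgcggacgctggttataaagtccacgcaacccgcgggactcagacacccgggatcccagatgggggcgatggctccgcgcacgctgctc
B2m, chr2:122147437-122147736, plus strand: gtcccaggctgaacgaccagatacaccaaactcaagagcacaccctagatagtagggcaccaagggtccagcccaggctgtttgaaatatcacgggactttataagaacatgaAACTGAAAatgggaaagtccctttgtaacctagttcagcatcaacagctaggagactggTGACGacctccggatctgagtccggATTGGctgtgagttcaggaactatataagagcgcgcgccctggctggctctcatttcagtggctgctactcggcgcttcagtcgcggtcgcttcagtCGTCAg

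The H2-K1 and H2-D1 windows were identical at 211 of 239 aligned bases (88.3%) and held the 4 motifs in the same order. The B2m window held 3 of the 4 motifs. The exact kappa-B letters of the H2-K1 and H2-D1 windows are not in it, and other forms of a kappa-B site were not searched for. Among all 32851 promoter windows the kappa-B letters occurred in 0.0852%, the interferon core in 23.9%, the X2 core in 20.8% and the Y box in 37.4%. All 4 motifs together occurred in 3 windows, which belong to H2-K1 (a pair of start sites) and H2-D1. The motifs were chosen as the known elements of class I promoters, so this describes the sequences and is no test.

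B2m encodes beta-2-microglobulin, the light chain that every class I molecule needs to reach the surface. B2m (ENSMUSG00000060802, chromosome 2, 122147686 to 122153083, plus strand) stood at 1580.2, 1586 and 1806 CPM in knockout livers and at 1350.4, 1659 and 1667 CPM in WT livers. The groups overlapped, and the log2 fold change was 0.09 (SE 0.15, 95% interval -0.26 to 0.43, adjusted p = 0.708, edgeR), or -0.16 with library totals. On a scale that allows genes to be compared, CPM per kb of exon, the level of B2m was 1927 ± 149.9 in knockout livers and 1813 ± 209.95 in WT livers (SD, n = 3 each). The level of H2-K1 was 761 ± 59.8 and 632 ± 36.9 CPM per kb, and that of H2-D1 was 445 ± 43.2 and 526 ± 30.3 CPM per kb, in knockout and WT livers in turn. In each of the 6 livers the order of these levels was B2m, H2-K1, H2-D1. The 3 genes were among the 112 highest of the 14758 tested genes by level per kb in knockout livers and among the 74 highest in WT livers.

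Tap1 and Tap2 together encode the peptide transporter, and Tapbp encodes tapasin, which holds the empty heavy chain beside it. Tapbp (ENSMUSG00000024308, chromosome 17, 33915899 to 33929292, plus strand) stood at 108, 88.1 and 117 CPM in knockout livers and at 135, 128 and 145 CPM in WT livers. Every knockout liver lay below every WT liver. Its log2 fold change of -0.37 (SE 0.13, 95% interval -0.68 to -0.07) had the smallest p of the 10 genes but did not pass over all genes (adjusted p = 0.0718, edgeR). Over the 13 alternatives its adjusted p ran from 0.0162 to 0.212, under the threshold with library totals only. Tapbp shares 904 exonic bases with the antisense gene Gm19412, which averaged 0.016 CPM in knockout livers and 0 CPM in WT livers. It also shares 149 exonic bases on the same strand with Zbtb22, which averaged 22.5 ± 2.67 CPM in knockout livers and 21.8 ± 1.70 CPM in WT livers.

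Tap1 (ENSMUSG00000037321, chromosome 17, 34187553 to 34197225, plus strand) stood at 37.9, 27.6 and 39.8 CPM in knockout livers and at 36.9, 38.9 and 47.5 CPM in WT livers. Tap2 (ENSMUSG00000024339, chromosome 17, 34203527 to 34216321, plus strand) stood at 28.6, 25.2 and 28.7 CPM in knockout livers and at 30.8, 21.7 and 31.7 CPM in WT livers. Both overlapped between groups. The log2 fold change of Tap1 was -0.23 (SE 0.17, 95% interval -0.61 to 0.15, adjusted p = 0.351, edgeR), and that of Tap2 was -0.03 (SE 0.16, 95% interval -0.39 to 0.33, adjusted p = 0.917, edgeR).

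Tap1 lies head to head with the immunoproteasome gene Psmb9, and their RefSeq start sites are 226 bases apart. The Tap1 window is shown because 275 of its 300 bases are also in the window of Psmb9, read on the other strand. Which start sites were used in these livers was not tested. GENCODE begins Psmb9 434 bases further upstream, inside Tap1. Capitals again mark the matches, here a Y box and an X2 core.
Tap1, chr17:34187306-34187605, plus strand: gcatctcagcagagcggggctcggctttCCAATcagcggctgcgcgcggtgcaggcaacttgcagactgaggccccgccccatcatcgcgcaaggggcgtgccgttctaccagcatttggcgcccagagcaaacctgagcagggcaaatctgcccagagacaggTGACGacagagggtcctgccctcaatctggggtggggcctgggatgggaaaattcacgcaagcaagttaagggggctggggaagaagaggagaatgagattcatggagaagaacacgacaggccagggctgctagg
The log2 fold changes of these neighbours had opposite signs, -0.23 for Tap1 and 0.31 for Psmb9, and neither passed. The annotated exons of the genes share 212 bases on opposite strands. The sources used here do not say whether counting used strand, so reads from the shared stretch cannot be assigned.

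Psmb8, Psmb9 and Psmb10 encode the catalytic subunits of the immunoproteasome (LMP7, LMP2 and MECL-1), which take the places of PSMB5, PSMB6 and PSMB7 of the constitutive proteasome. Psmb9 (ENSMUSG00000096727, chromosome 17, 34181987 to 34187764, minus strand) stood at 19.1, 16.9 and 23.5 CPM in knockout livers and at 15.0, 14.8 and 18.05 CPM in WT livers. Of the knockout livers 2 lay above every WT liver, and the log2 fold change was 0.31 (SE 0.15, 95% interval -0.04 to 0.67, adjusted p = 0.177, edgeR). Psmb8 (ENSMUSG00000024338, chromosome 17, 34197721 to 34201454, plus strand) stood at 26.9, 25.8 and 33.7 CPM in knockout livers and at 26.4, 21.04 and 30.4 CPM in WT livers. The groups overlapped (log2 0.15, SE 0.17, 95% interval -0.23 to 0.53, adjusted p = 0.549, edgeR), and the log2 value was -0.10 with library totals. Psmb10 (ENSMUSG00000031897, chromosome 8, 105935735 to 105938444, minus strand) stood at 33.1, 25.1 and 36.9 CPM in knockout livers and at 38.6, 27.7 and 34.2 CPM in WT livers. Its groups overlapped as well (log2 -0.08, SE 0.18, 95% interval -0.48 to 0.32, adjusted p = 0.774, edgeR).

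**Figure D2:**
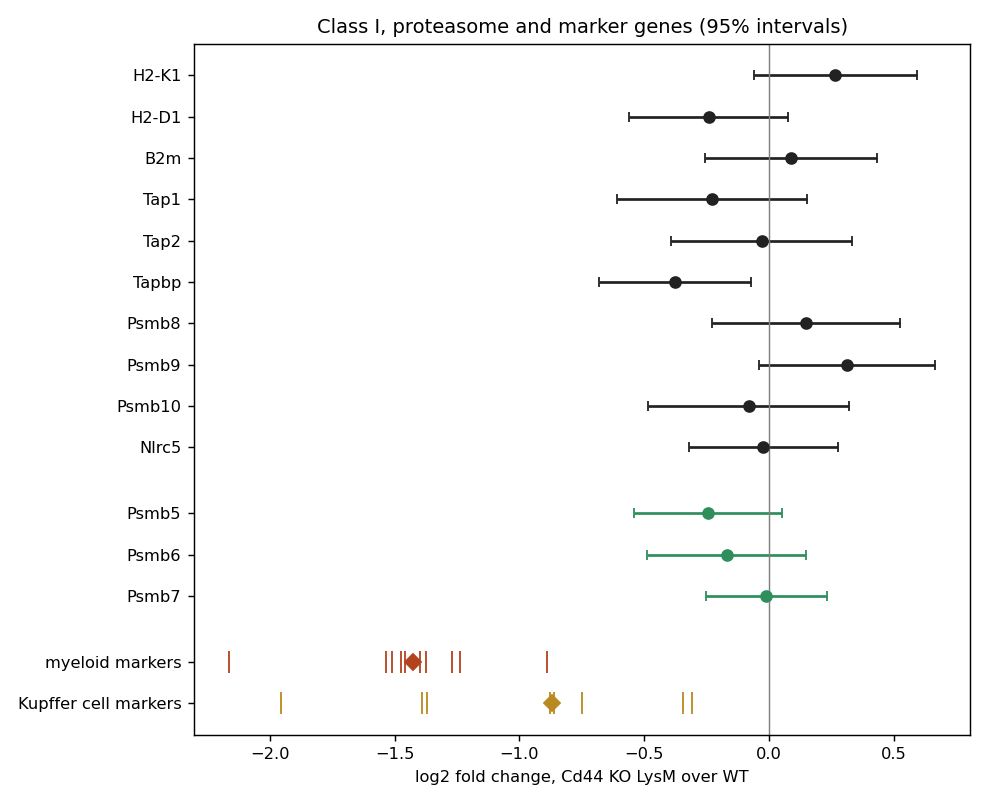
Log2 fold change of knockout over WT livers for the 10 genes (black) and the constitutive catalytic subunits (green), with 95% intervals from the edgeR fit. Ticks below are single myeloid and Kupffer cell markers and diamonds are their medians (-1.43 and -0.87). The class I and immunoproteasome genes lie between -0.37 and 0.31.

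The constitutive subunits did not pass either. Psmb5 had 85.1 ± 11.7 CPM in knockout livers and 101 ± 7.22 CPM in WT livers (log2 -0.24, adjusted p = 0.205, edgeR), Psmb6 had 90.8 ± 14.4 and 102 ± 9.01 CPM (adjusted p = 0.415), and Psmb7 had 66.8 ± 5.13 and 67.3 ± 1.91 CPM (adjusted p = 0.956). The ratio of each immunoproteasome subunit to its constitutive counterpart was taken per kb of exon within each liver. Psmb8 over Psmb5 was 0.0886, 0.0899 and 0.0910 in knockout livers and 0.0724, 0.0512 and 0.0839 in WT livers. Psmb9 over Psmb6 was 0.123, 0.101 and 0.112 in knockout livers and 0.0685, 0.0798 and 0.0931 in WT livers. Both ratios were higher in every knockout liver than in any WT liver, by 0.41 and 0.48 on the log2 scale, and the exact permutation test gave its smallest possible 2-sided p of 0.1 for each (0.15 after adjustment over the 3 ratios). Psmb10 over Psmb7 was 1.02, 0.802 and 1.02 in knockout livers and 1.13, 0.853 and 1.00 in WT livers, which overlapped (exact permutation p = 0.7). Per kb of the longest coding transcript, a length chosen after seeing the data, the mean ratios were 0.187 in knockout livers and 0.144 in WT livers for Psmb8 over Psmb5, 0.129 and 0.0928 for Psmb9 over Psmb6, and 0.418 and 0.439 for Psmb10 over Psmb7. The length rescales all livers alike, so the size of a ratio depends on it and the log2 difference between genotypes does not.

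**Figure D3:**
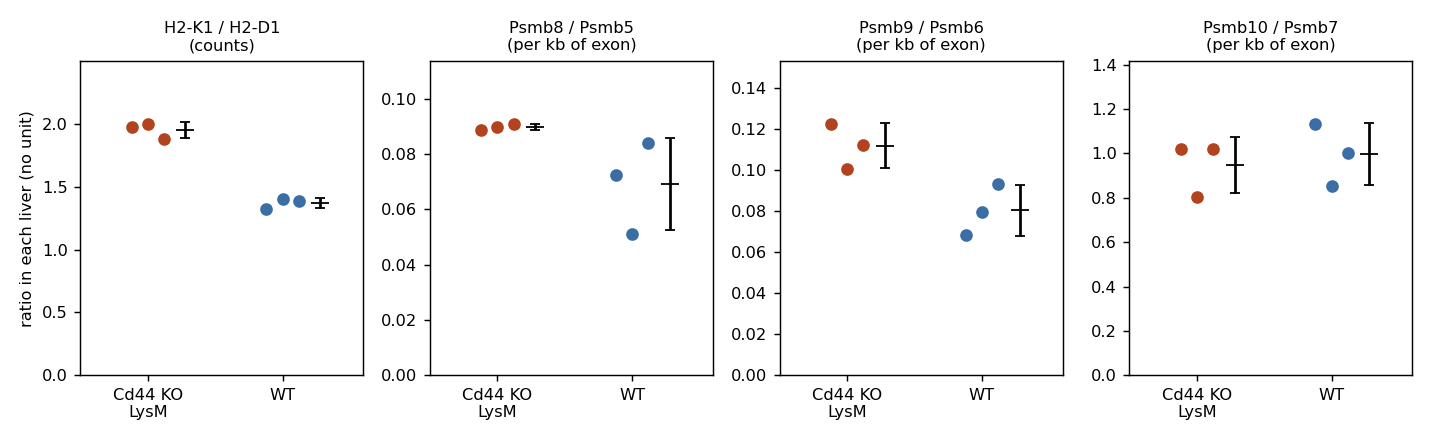
Ratio of H2-K1 to H2-D1 counts and of each immunoproteasome subunit to its constitutive counterpart (levels per kb of exon), 1 point per liver, with knockout livers left of WT livers and the mean ± SD beside them. The first 3 ratios are higher in all knockout livers than in any WT liver, and the ratio of Psmb10 to Psmb7 overlaps.

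Nlrc5 encodes the transactivator of class I genes, which is drawn to their promoters through the RFX complex. Nlrc5 (ENSMUSG00000074151, chromosome 8, 94434356 to 94527272, plus strand) stood at 27.997, 24.6 and 21.98 CPM in knockout livers and at 25.3, 22.8 and 27.6 CPM in WT livers. The groups overlapped throughout, and the log2 fold change was -0.02 (SE 0.13, 95% interval -0.32 to 0.28, adjusted p = 0.922, edgeR). Per kb of exon it was the lowest of the 10 genes, with 2.93 ± 0.36 CPM per kb in knockout livers and 2.97 ± 0.28 CPM per kb in WT livers.

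Between the heavy chains and Nlrc5, Tapbp had 28.8 ± 4.13 CPM per kb in knockout livers and 37.4 ± 2.36 in WT livers, and Psmb10 had 18.6 ± 3.55 and 19.6 ± 3.23. Psmb8 had 8.51 ± 1.26 CPM per kb in knockout livers and 7.67 ± 1.40 in WT livers, Tap2 had 7.27 ± 0.54 and 7.42 ± 1.47, Tap1 had 6.41 ± 1.203 and 7.51 ± 1.03, and Psmb9 had 5.42 ± 0.92 and 4.36 ± 0.50. Per kb of exon the values of Psmb8, Tap2 and Tap1 differed between neighbours in this order by less than the larger of their SDs. These levels depend on the length used: per kb of the longest coding transcript, chosen after seeing the data, Psmb9 stood at 14.7 ± 2.50 CPM per kb in knockout livers and 11.8 ± 1.34 in WT livers, and Psmb8 at 17.7 ± 2.62 and 15.9 ± 2.90, both above Tap2 at 7.99 ± 0.59 and 8.15 ± 1.61. H2-K1 then stood at 1380.2 ± 109 and 1147 ± 66.9 CPM per kb, closer to B2m.

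The shared level of the 10 genes did not separate the genotypes. The mean of their standardised log2 CPM was -0.02, -0.59 and 0.56 in knockout livers and -0.05, -0.60 and 0.70 in WT livers, so the groups overlapped over nearly their whole range. Mean correlations of a gene with the other 9 over the 6 livers ran from 0.02 (Nlrc5) and 0.03 (H2-K1) to 0.43 (Psmb8). Among the 5 protein-coding genes most like this mean, of 13024 compared, were Zfp78, Ltb4r1, Sssca1 and Zfp933. Their Pearson r was 0.98, 0.96, 0.95 and 0.95 over 6 livers, and they share library and depth with the mean. Zfp78 had 15 to 31 counts per liver and Ltb4r1 had 11 to 28. The ranking was not tested against what 13024 comparisons over 6 livers would give without a relation.

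The other parts of the proteasome and of peptide loading were described from lists. Of 11 further subunits of the 20S core 0 passed by edgeR, by DESeq2 or by limma-voom (median log2 -0.04). At an unadjusted p under 0.05 edgeR had 0 of them, with the smallest p for Psma7 (86.3 ± 11.0 CPM in knockout livers, 98.9 ± 4.27 in WT livers) and Psmb4 (124 ± 9.43 and 138 ± 1.70 CPM). Of 9 proteasome activators and assembly factors 0 passed by the same 3 tools, and 0 stood under 0.05 before adjustment in edgeR. Psme2, a subunit of the interferon-induced PA28 activator, had 32.96 ± 12.2 CPM in knockout livers and 40.5 ± 6.30 in WT livers, and the chaperone gene Psmg4 had 9.89 ± 0.85 and 12.1 ± 0.29 CPM. Of 17 genes of the 19S regulatory particle only Psmd8 passed, as lower. Over all tested genes 13.1% fell and 11.9% rose. Psmd8, a lid subunit, had 146, 124 and 188 CPM in knockout livers and 307, 325 and 279.7 CPM in WT livers, so the groups were far apart (log2 -0.99, SE 0.16, adjusted p = 0.00444, edgeR). It passed under all 13 alternatives. Without TMM, relative to library totals, 3 of the 11 core subunits, 1 of the 9 activators and assembly factors and 5 of the 19S genes passed as lower. With that scaling 3698 of all 14758 tested genes passed as lower, so these counts are no result about the lists.

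Of 8 genes of peptide trimming and class I folding, Erap1 rose and Npepps fell. Over all tested genes 11.9% rose and 13.1% fell. Erap1, the aminopeptidase that trims peptides in the endoplasmic reticulum, stood at 109, 115 and 105 CPM in knockout livers and at 79.6, 74.6 and 84.8 CPM in WT livers (log2 0.46, SE 0.11, adjusted p = 0.0165, edgeR). The call was lost without knockout liver 1 or WT liver 2 (adjusted p = 0.0548 and 0.0644) and with library totals (0.17). Npepps, a cytosolic aminopeptidase, had 39.5 ± 4.27 CPM in knockout livers and 53.2 ± 6.12 in WT livers (log2 -0.43, adjusted p = 0.0447, edgeR), and passed only in the fit that left out knockout liver 3 among the 6 with a library left out (adjusted p = 0.0437 to 0.136). The chaperone genes Calr, Canx and Pdia3, with 552 ± 51.8, 295 ± 49.1 and 332 ± 41.0 CPM in knockout livers against 513 ± 102, 292 ± 24.9 and 350.0 ± 59.5 CPM in WT livers, did not pass.

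Of 13 nonclassical class I heavy chains 12 were tested, and 2 fell and 0 rose (median log2 -0.16). That is 16.7% lower, where 13.1% of all tested genes fell, so the count is no result about the list. H2-Q1 (ENSMUSG00000079507, chromosome 17, 35320405 to 35325099, plus strand), a gene of the Q region near H2-D1, stood at 22.8, 24.2 and 22.2 CPM in knockout livers and at 77.0, 60.1 and 90.4 CPM in WT livers. Every WT liver lay far above every knockout liver, and the log2 fold change of -1.72 (SE 0.16, adjusted p = 0.00057, edgeR) passed under all 13 alternatives. H2-Q1 shared 16.6% of its 75-base windows with other genes, among them H2-D1 and H2-Q2, so its level is uncertain. H2-T22 had 151 ± 12.5 CPM in knockout livers and 219 ± 37.5 in WT livers (log2 -0.54, adjusted p = 0.0315, edgeR). Its call was lost without knockout liver 1 or 2 or WT liver 2 or 3 (adjusted p = 0.103, 0.0829, 0.123 and 0.108), and it shared 24.6% of its windows. H2-Q10, which encodes a class I molecule secreted by hepatocytes, had 1660.3 ± 232 CPM in knockout livers and 1419.8 ± 80.02 CPM in WT livers and did not pass (adjusted p = 0.315, edgeR). It is named here beyond the rule, after its values were seen.

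Of 9 class I-like molecules 8 were tested, and 2 rose and 2 fell, where 11.9% of all tested genes rose and 13.1% fell. Cd1d1, which presents lipids to NKT cells, stood at 228, 324 and 228 CPM in knockout livers and at 139, 145 and 161 CPM in WT livers (log2 0.81, SE 0.16, adjusted p = 0.00923, edgeR), and passed under all 13 alternatives. Fcgrt, the neonatal Fc receptor that recycles albumin and IgG, had 181 ± 24.6 CPM in knockout livers and 130.2 ± 9.16 in WT livers (adjusted p = 0.0315, edgeR). Procr, the endothelial protein C receptor, had 1.503 ± 0.21 CPM in knockout livers and 2.78 ± 0.30 in WT livers (adjusted p = 0.0326, edgeR). Ulbp1, an NKG2D ligand, had 0.35 ± 0.17 CPM in knockout livers and 1.15 ± 0.18 in WT livers (adjusted p = 0.0197, edgeR). The level of Ulbp1 in knockout livers rests on 11, 4 and 7 counts. Fcgrt was lost with library totals (adjusted p = 0.25) and without knockout liver 3 or WT liver 2 or 3 (up to 0.0967), Ulbp1 without knockout liver 2 or 3 or WT liver 1 or 2 (up to 0.0661), and Procr without every library except knockout liver 3 (up to 0.112).

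**Figure D4:**
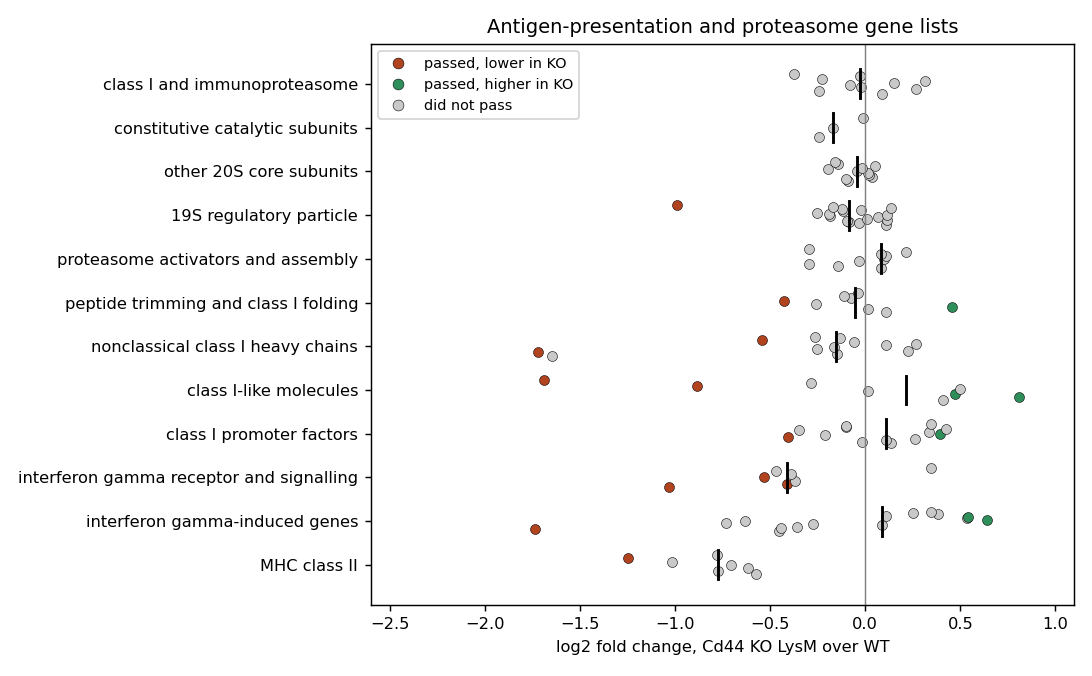
Log2 fold change of knockout over WT livers for each tested gene of the class I, proteasome and interferon lists, coloured by the edgeR call at an adjusted p under 0.05. Black lines are list medians. Psmd8 (-0.99), H2-Q1 (-1.72), Ifngr1 (-1.03) and Cxcl10 (-1.74) lie apart from most of their lists.

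Of 13 factors that act at class I promoters, 1 fell and 1 rose, where 13.1% of all tested genes fell and 11.9% rose. These counts are no result about the list. Nfkb1 fell (36.5 ± 0.66 CPM in knockout livers, 48.4 ± 3.75 in WT livers, adjusted p = 0.0246, edgeR). Nfyb rose (27.5 ± 3.04 CPM in knockout livers, 20.9 ± 0.53 in WT livers, adjusted p = 0.0405, edgeR). Nfkb1, which encodes the p105 and p50 subunit, did not pass with any library left out (adjusted p = 0.0516 to 0.0801), and Nfyb, a subunit of the Y box factor NF-Y, passed with 1 of 6 left out, knockout liver 3 (0.0367 to 0.147), and was lost with library totals (0.433) and with no filter (0.0641). Irf1, a direct activator of class I and immunoproteasome genes, stood at 20.95, 33.6 and 36.4 CPM in knockout livers and at 22.3, 29.0 and 33.2 CPM in WT livers, which overlapped.

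Both interferon gamma receptor genes fell, and only the call of Ifngr1 held with each library left out. Of 8 genes of the receptor and its signalling 7 were tested, 3 fell and 0 rose (median log2 -0.41). Over all tested genes 13.1% fell, and the list was not tested as a set. Ifngr1, the chain that binds the cytokine, stood at 31.6, 27.3 and 27.6 CPM in knockout livers and at 58.6, 65.1 and 53.6 CPM in WT livers (log2 -1.03, SE 0.12, adjusted p = 0.0012, edgeR), and passed under all 13 alternatives. Ifngr2, the other chain, had 36.3 ± 2.39 CPM in knockout livers and 48.2 ± 2.23 in WT livers (adjusted p = 0.0249), and the kinase gene Jak2 had 19.7 ± 2.15 and 28.4 ± 3.44 CPM (adjusted p = 0.0223). Ifngr2 did not pass with any library left out (adjusted p = 0.0529 to 0.0879), and Jak2 did not pass without knockout liver 1 or 2 or WT liver 1 or 3 (up to 0.0838). Ifng itself had 0, 0 and 2 counts in knockout livers and 0, 0 and 2 counts in WT livers, under the limit of 3 counts, so a difference in it was not detectable at this depth.

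Of 16 genes induced by interferon gamma 15 were tested, and 1 fell and 2 rose (median log2 0.09), where 13.1% of all tested genes fell and 11.9% rose, so these counts are no result about the list. The chemokine Cxcl10 had 5.90, 3.03 and 7.69 CPM in knockout livers and 14.0, 18.5 and 22.96 CPM in WT livers (log2 -1.74, SE 0.32, adjusted p = 0.00652, edgeR). The GTPase genes Gbp7 (27.4 ± 4.02 CPM in knockout livers, 17.6 ± 2.69 in WT livers, adjusted p = 0.0188) and Iigp1 (296 ± 34.3 and 204 ± 39.7 CPM, adjusted p = 0.0491) rose, and neither passed with library totals (0.0943 and 0.183) or without knockout liver 1, WT liver 1 or WT liver 2. Iigp1 passed with 1 of the 6 libraries left out, knockout liver 3 (adjusted p = 0.0484 to 0.121). With that liver left out the list had 3 genes that fell.

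Of 7 MHC class II genes, which are made by professional antigen-presenting cells, only H2-DMb1 passed (4.20 ± 2.46 CPM in knockout livers, 9.97 ± 1.53 in WT livers, adjusted p = 0.0477, edgeR), all 7 had negative log2 values and the median was -0.77. The share that fell, 14.3%, is near the 13.1% of all tested genes that fell, so this count is no result about the list. The count was 0 without knockout liver 1 or any single WT liver, and 7 without knockout liver 3. In the fit without knockout liver 3, 1837 of all 15196 tested genes fell. Markers of the cells that read class I were low in these libraries. Of 12 CD8 T and NK cell markers 4 passed the count filter and 0 of those passed the test by edgeR, by DESeq2 or by limma-voom, and 0 were under 0.05 before adjustment in edgeR. The smallest p values were those of Klrk1 (1.26 ± 0.37 CPM in knockout livers, 1.61 ± 0.27 in WT livers) and Gzmb (0.58 ± 0.09 and 0.49 ± 0.07 CPM). The summed level of the 12 was 4.23 to 6.60 CPM in knockout livers and 5.46 to 6.44 CPM in WT livers. Cd8a had 2, 1 and 2 counts in knockout livers and 8, 7 and 13 counts in WT livers and was not tested. It was named after its values were seen. Of the 4 tested markers of this list 1 had a negative log2 value (median 0.10). A difference in the number of CD8 T cells was not tested. Of 5 B cell markers 3 were tested (Cd22, Cd79a and Cd79b), and Cd22 alone fell, where 13.1% of all tested genes fell. The call of Cd22 was lost without knockout liver 1 or WT liver 1 or 2.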

How the data were processed

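Liver RNA of 6 mice was sequenced after poly-T selection, and per the labels each column of the deposited table is 1 mouse. The authors deposited whole-number read counts, not normalised, for each Ensembl gene. The submitters' processing notes name GRCm38.p6, featureCounts 1.5.0-p3, HISAT2 2.0.5 and StringTie 1.3.3b without saying what each did. Strand use in counting and the treatment of reads with several matches: not given in the sources used here. Of 54532 genes, 54495 matched GENCODE M21 (GRCm38), which gave symbols, positions and exon lengths.

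Counts were filtered by group (filterByExpr), scaled by TMM and fitted with edgeR 4.0.16 (quasi-likelihood, genotype as the single term, R 4.3.3), with Benjamini-Hochberg adjustment over all 14758 tested genes. The SE is the log2 fold change divided by the square root of F, and intervals use the moderated degrees of freedom. Log2 CPM used a prior count of 2. Libraries of the same genotype were compared in pairs and all differed beyond counting error (chi-square per degree of freedom at least 26.9), so each was counted as 1 sample. The labels number the mice and give no litter or batch.

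The 10 genes, the related lists and the tests were chosen with earlier results of these data known. All 10 genes are named. From longer lists, up to 4 genes that passed are named by smallest p, or the 2 smallest where none passed, and all genes of lists of 5 or fewer. Calr, Canx, Pdia3, H2-Q10, Irf1, Ifng and Cd8a are named beyond this rule, after their values were seen, and cell marker lists are mainly given by counts and sums. Of the 5 genes most like the mean of the 10, 1 is not reported here. Promoter windows were found for 8 of the 10 genes. DESeq2 1.42.0, limma-voom (limma 3.58.1), RLE size factors, library totals, no filter, at least 50 counts in 3 libraries, the mouse number as a block and leaving out each library were the 13 alternatives.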

Additional observations from a re-analysis of the deposited data

How the results depend on the processing

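Of the 10 class I and immunoproteasome genes, 0 passed in either direction in edgeR, DESeq2, limma-voom, RLE scaling, both other filters, the replicate block and all 6 fits with a library left out. With library totals 2 passed as lower (H2-D1 and Tapbp), B2m turned to -0.16 and Psmb8 to -0.10 on the log2 scale. That scaling moves all genes, whose median was -0.26 against -0.01 with TMM. With single libraries left out, Tap2 ran from -0.17 to 0.0901, Psmb10 from -0.20 to 0.0672 and Nlrc5 from -0.11 to 0.0691, and the log2 difference of Psmb10 over Psmb7 from -0.18 to 0.0428. Those of Psmb8 over Psmb5 (0.20 to 0.56) and Psmb9 over Psmb6 (0.37 to 0.59) kept their sign. Of 107 tested genes of the related lists other than cell markers, 12 fell and 6 rose. These counts were 32 and 1 with library totals, 9 and 3 with the replicate block, and 5 to 17 and 1 to 7 with single libraries left out. Over all tested genes, 1933 fell and 1751 rose, against 3698 and 904 with library totals, 1648 and 1438 with the replicate block, and 1183 to 1837 and 1086 to 1576 with single libraries left out. The block removed the calls of H2-T22, Npepps, Nfyb, Iigp1, Fcgrt and Procr among the genes named. The cause was not tested. Over all genes, livers with the same mouse number did not deviate together (correlations -0.03, 0.04 and -0.02), so the number was not taken as a pairing. The mean of the 10 genes was close in same-numbered livers (-0.02, -0.59 and 0.56 in knockout livers, -0.05, -0.60 and 0.70 in WT livers). The numbers are those of the sample titles. The numbers in the library names differ from them except for WT liver 1. By library name, livers 2 and livers 3 of the genotypes also share a number, and livers 1 do not.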
